A study of Homo sapiens with 12 samples.

Results

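The 42 genes described here form the machinery that senses oxygen through the hypoxia-inducible factors (HIF) and a set of their best known target genes. They were chosen by symbol from a deposited RNA-seq table of 60564 genes, and each of the 42 symbols was found there. CFPAC-1 and BxPC-3 are established lines of human pancreatic ductal adenocarcinoma (PDAC), a cancer with features of the pancreatic duct. The groups were CFPAC-1 cells starved of serum for 48 h to induce primary cilia (induced), CFPAC-1 cells in normal culture (control), and the same pair of groups for BxPC-3, with 3 libraries in each. Cilia were reported on 39% of induced and 7% of control CFPAC-1 cells, and on 78% of induced and 5% of control BxPC-3 cells. The labels name no low-oxygen treatment and no genetic change. Nothing says that the libraries of a group are separate cultures, and p-values then cover the spread of these libraries, which may be technical.

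HIF is a pair of proteins: an oxygen-regulated alpha subunit, encoded by HIF1A or EPAS1, bound to the stable partner encoded by ARNT. In the presence of oxygen the prolyl hydroxylases encoded by EGLN1, EGLN2 and EGLN3 mark the alpha subunit, the VHL ubiquitin ligase then has it degraded, and the asparagine hydroxylase encoded by HIF1AN blocks its coactivators. When hydroxylation fails, HIF binds short DNA motifs with the core letters ACGTG or GCGTG and raises genes for glucose uptake, glycolysis, blood vessel growth and mitophagy, among them EGLN3 itself. Alpha subunit control acts mainly on the protein, which RNA-seq does not measure. In bulk RNA, fewer cells of a type and less RNA per cell cannot be told apart.

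Promoters of 4 members are printed because these members had the largest positive changes in BxPC-3 among those with a promoter entry that holds a core motif. Each is the 250 bases before the RefSeq start site on GRCh38.p14, read 5′ to 3′ on the gene's own strand, which is the plus strand for all 4. Capitals mark ACGTG or GCGTG, which appear as CACGT or CACGC where they lie on the other strand. The windows are chr19:8363905-8364154 for ANGPTL4, chrX:78103998-78104247 for PGK1, chr3:122383932-122384181 for FAM162A and chr19:34364742-34364991 for GPI.
ANGPTL4: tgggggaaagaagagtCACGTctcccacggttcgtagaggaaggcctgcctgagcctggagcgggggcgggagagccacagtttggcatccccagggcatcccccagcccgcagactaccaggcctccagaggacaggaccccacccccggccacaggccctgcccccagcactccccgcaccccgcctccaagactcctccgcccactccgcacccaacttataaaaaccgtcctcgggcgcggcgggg
PGK1: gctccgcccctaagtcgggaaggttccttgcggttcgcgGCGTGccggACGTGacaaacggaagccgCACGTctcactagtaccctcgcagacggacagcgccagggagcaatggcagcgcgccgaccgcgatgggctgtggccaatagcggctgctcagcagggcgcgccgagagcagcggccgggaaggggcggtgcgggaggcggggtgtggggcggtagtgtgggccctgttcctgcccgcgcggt
FAM162A: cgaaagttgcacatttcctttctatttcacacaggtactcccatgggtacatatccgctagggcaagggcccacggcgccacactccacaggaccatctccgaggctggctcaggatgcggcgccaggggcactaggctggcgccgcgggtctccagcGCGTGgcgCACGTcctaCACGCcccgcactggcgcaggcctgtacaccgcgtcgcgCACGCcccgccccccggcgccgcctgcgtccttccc
GPI: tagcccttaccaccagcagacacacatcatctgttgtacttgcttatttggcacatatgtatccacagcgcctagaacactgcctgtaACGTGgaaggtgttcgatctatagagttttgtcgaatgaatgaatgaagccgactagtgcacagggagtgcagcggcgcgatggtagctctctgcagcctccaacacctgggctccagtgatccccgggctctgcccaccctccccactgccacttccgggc
The PGK1 window held 3 matches, whose first letters lay 211, 202 and 183 bases before the start site. The FAM162A window held 4 matches, of which the closest to the start site was 36 bases before it, and the ANGPTL4 and GPI windows held 1 match each, at 234 and 162 bases. Promoter entries matched 35 of the 42 members, and VEGFA, NDRG1, HILPDA, BNIP3L, ZNF395, SLC2A3 and VHL had none. Of the 35 members, 28 (80%) held ACGTG or GCGTG on either strand in at least 1 promoter, against 47.4% of the 27305 genes with a promoter entry. ACGTG was present for 20 of the 35 members (57.1%), against 21.7% of all genes. Most members were listed as known HIF targets, so a share above that of all genes is no separate evidence about them. Genes with several promoter entries had more chances of a match, and all genes included those not expressed here. Overlapping matches were each counted. Such a match describes the letters of the window and is not a binding site by itself.

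Expression was given as FPKM, fragments per kilobase of transcript per 1000000 mapped fragments, and per-library values are always in the order of libraries 1, 2 and 3. The test covered the 12860 genes that reached 1 FPKM in 3 or more of the 12 libraries, and 39 of the 42 members were among them. BNIP3, STC2 and VLDLR were not. SLC2A3 reached 1 FPKM in the 3 induced CFPAC-1 libraries alone, so the filter let it in through the group where it was high. It stays in the counts below. Log2 changes are differences of mean log2(FPKM + 1) with their standard errors, induced minus control unless said otherwise, which understates changes of low genes. Gene coordinates are those of GENCODE 29 on GRCh38. A gene was called when its adjusted p (limma, Benjamini-Hochberg over all tested genes) was under 0.05.

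The libraries labelled CFPAC-1 control 2 and 3 stood apart. Over the tested genes, which are no independent replicates, the 2 had r = 0.990 between them, a mean r of 0.803 with the other 4 libraries of their line and 0.785 with BxPC-3, against 0.944 among those 4. Every CFPAC-1 change of a member is therefore also given against control 1 alone, a fit in which that single library takes the spread of the remaining groups. Libraries 2 and 3 of each group were also closer to each other than to library 1 (SD of log2 differences 0.259 to 0.282, against 0.534 to 1.08). The mitochondrial genome accounted for 11.6% to 22.8% of all FPKM in induced and 19.9% to 34.0% in control CFPAC-1 libraries, and 18.6% to 22.3% in induced and 24.6% to 28.8% in control BxPC-3 libraries. Of 8 duct and epithelial markers, 7 in CFPAC-1 and 8 in BxPC-3 reached 1 FPKM in at least 1 library of each group. KRT19 was at 532, 7.42 and 7.67 FPKM and EPCAM at 14.8, 0.963 and 1.04 FPKM in CFPAC-1 control 1, 2 and 3. MUC1 and CDH1 were also lower in control 2 and 3 than in control 1. KRT7, KRT18 and SOX9 were higher there, and KRT8 lay on both sides of control 1. The 6 immune markers summed to 41.0 to 48.4 FPKM in induced against 10.7 to 13.2 FPKM in control CFPAC-1 libraries, and to 8.92 to 13.3 against 5.12 to 6.14 FPKM in BxPC-3, with PTPRC at 0 in the control CFPAC-1 and the induced BxPC-3 libraries and CD3E at 0 in the control CFPAC-1 libraries. Most of the immune sum in CFPAC-1 was CD68, and most of the fibroblast sum in its induced libraries was LUM. The 8 fibroblast markers summed to 26.7 to 111 FPKM in induced against 6.35 to 37.8 FPKM in control CFPAC-1 libraries, and to 2.02 to 3.33 against 2.93 to 3.36 FPKM in BxPC-3. LUM was at 36.8 FPKM in CFPAC-1 control 1, against 0.0532 and 0 FPKM in control 2 and 3. COL1A1 and COL3A1 were higher in control 2 and 3 than in control 1, and the other fibroblast markers stayed under 1 FPKM in these controls. The 4 endothelial markers summed to at most 0.621 FPKM, and the 6 acinar and endocrine markers to at most 2.92 FPKM, in any library. The part of these markers in the changes below was not tested.

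**Figure D1:**
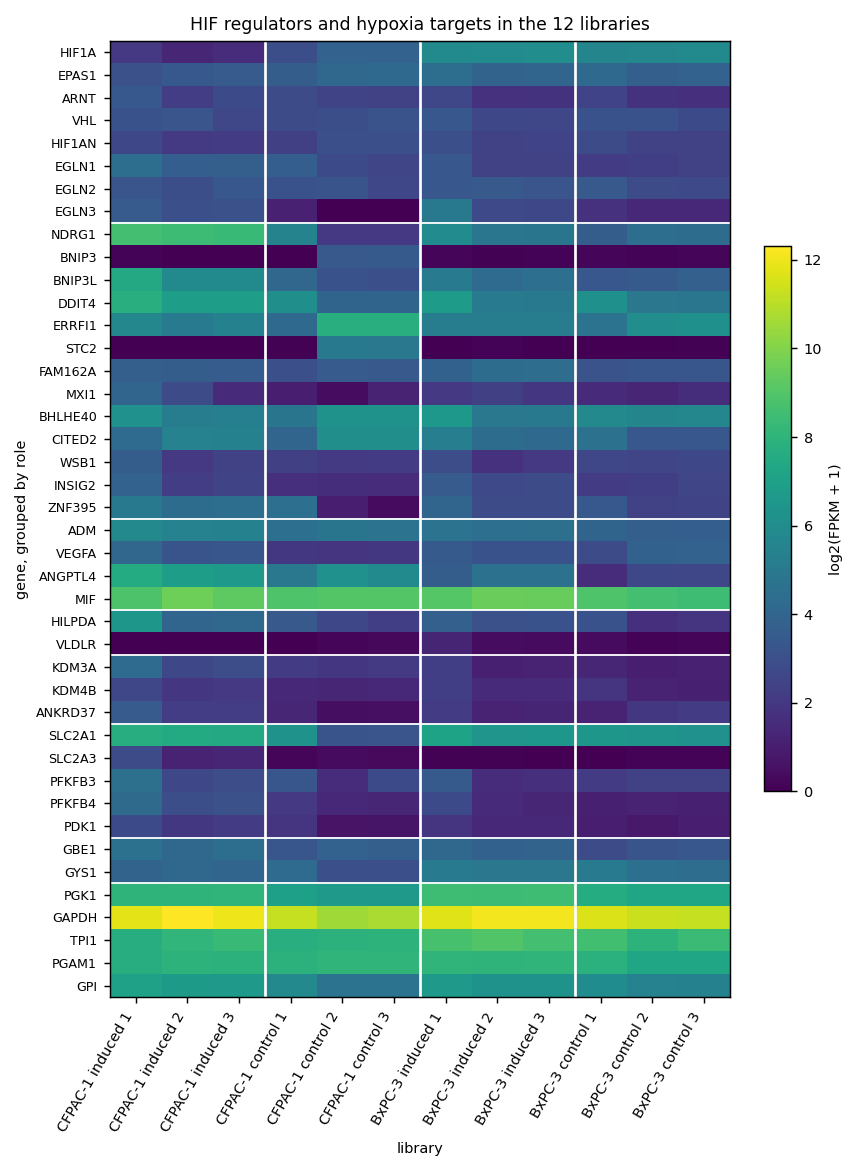
Expression of the 42 members in the 12 libraries as log2(FPKM + 1), genes in rows grouped by role and libraries in columns, induced left of control for each line. BNIP3 and STC2 are bright in CFPAC-1 control 2 and 3 and near 0 elsewhere, and HIF1A is dim in CFPAC-1 and bright in BxPC-3.

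HIF1A fell in induced CFPAC-1 cells while 18 other members rose there, and in BxPC-3 PGK1 rose. The log2 change was positive for 32 of the 39 tested members in CFPAC-1, against 43.7% of all genes, and for 31 of 39 in BxPC-3, against 59.1% of all genes. In CFPAC-1 with all libraries, 19 of the 39 tested members passed, 18 up and 1 down, where 16.6% of all tested genes passed (7.85% up, 8.77% down). The median log2 change was 0.93 for the members and -0.09 for all tested genes. Against control 1 alone, 3 of 39 passed, NDRG1 and PGK1 up and HIF1A down, where 1.73% of all genes passed (1.06% up, 0.669% down), and the members' median was 1.00 against -0.05. In BxPC-3, 1 of 39 passed, PGK1, which rose, where 0.334% of all genes passed (0.295% up, 0.0389% down), and 12 of 39 members had an unadjusted p under 0.05, as did 8.52% of all genes. The median in BxPC-3 was 0.44 for the members and 0.06 for all tested genes. The fit shares its spread over all groups, and without CFPAC-1 control 2 and 3 the BxPC-3 count was still 1 of 39, where 0.404% of all genes passed (0.381% up, 0.0233% down).

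The ranges of the libraries describe the members without a test. All 3 induced libraries lay above all 3 control libraries for 23 of 39 members in CFPAC-1, where 14.0% of all tested genes did, and below them for 2, where 17.6% did. In BxPC-3 this held for 18 of 39 members above, against 12.4% of all genes, and for 0 below, against 4.84%. Against CFPAC-1 control 1 alone, the induced libraries lay above for 26 members and below for 3, against 27.2% and 33.7% of all genes. The lines share no library, and 15 of the 39 members lay above in both, as did 2.57% of all tested genes. Those 15 were EGLN1, EGLN3, NDRG1, BNIP3L, FAM162A, MXI1, INSIG2, ADM, ANGPTL4, PFKFB4, PDK1, GBE1, PGK1, GAPDH and GPI. A further 8 lay above in CFPAC-1 but not in BxPC-3 (DDIT4, VEGFA, HILPDA, KDM3A, KDM4B, ANKRD37, SLC2A1 and SLC2A3), 3 in BxPC-3 but not in CFPAC-1 (MIF, TPI1 and PGAM1), and 13 in neither.

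**Figure D2:**
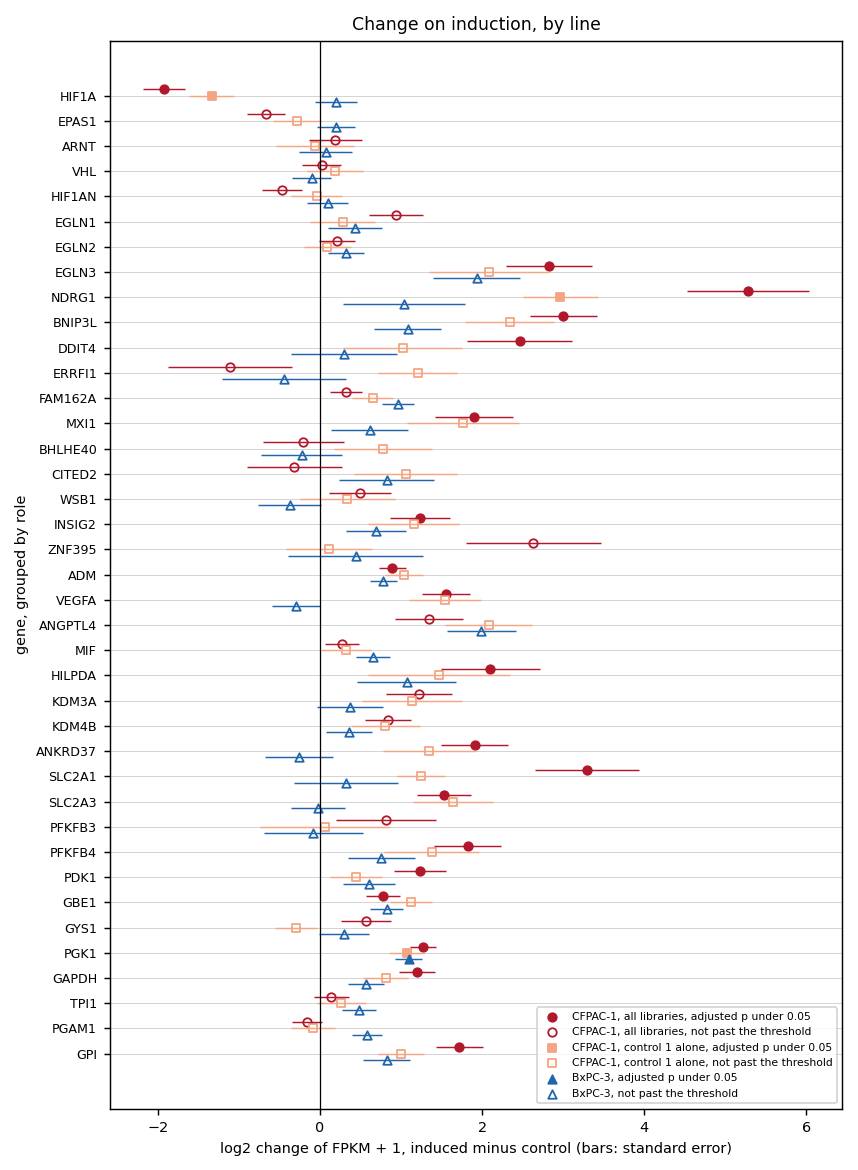
Log2 change of FPKM + 1, induced minus control, for the 39 tested members grouped by role, with standard errors: CFPAC-1 with all libraries (circles), CFPAC-1 against control 1 alone (squares) and BxPC-3 (triangles), filled where the adjusted p was under 0.05. In CFPAC-1 19 circles and 3 squares are filled, and in BxPC-3 the triangle of PGK1 alone.

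Among the HIF subunits, HIF1A fell in induced CFPAC-1 cells and was far higher in BxPC-3. HIF1A (ENSG00000100644, chromosome 14, 61695513 to 61748259) stood at 3.07, 1.53 and 1.91 FPKM in induced CFPAC-1 libraries, against 6.85, 13.4 and 13.6 FPKM in control libraries. All 3 induced libraries were below control 1, and control 1 was below control 2 and 3. The log2 change was -1.93 ± 0.26 (limma adjusted p = 0.00174), and -1.34 ± 0.27 against control 1 alone (adjusted p = 0.0457). The call held whichever of the 12 libraries was left out. In BxPC-3, HIF1A was at 56.0, 59.7 and 63.6 FPKM in induced and 46.8, 51.5 and 58.3 FPKM in control libraries, whose ranges overlapped (change 0.20 ± 0.26, limma adjusted p = 0.926). Between the induced groups, BxPC-3 exceeded CFPAC-1 by 4.29 ± 0.26 log2 units (limma adjusted p = 4.12e-07). The antisense gene HIF1A-AS1, which shares exon bases with HIF1A, was at most 1.05 FPKM.

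EPAS1, which encodes the alpha subunit of HIF-2, was at 7.29, 9.48 and 10.5 FPKM in induced CFPAC-1 libraries, against 11.2, 16.7 and 17.7 FPKM in control libraries. Every induced library was below every control library. The log2 change was -0.67 ± 0.23 and did not pass (limma adjusted p = 0.066; -0.28 and 0.687 against control 1 alone). In BxPC-3, EPAS1 was at 20.7, 14.2 and 15.4 FPKM in induced and 17.7, 12.1 and 13.6 FPKM in control libraries, and the ranges overlapped (change 0.20 ± 0.23, adjusted p = 0.912). The ratio of HIF1A to EPAS1 FPKM was 0.421, 0.161 and 0.181 in induced CFPAC-1 libraries, against 0.612, 0.805 and 0.767 in control libraries. In BxPC-3 that ratio was 2.71, 4.20 and 4.14 in induced and 2.65, 4.25 and 4.30 in control libraries. EPAS1 thus had the higher level of the 2 alpha subunit genes in every CFPAC-1 library, and HIF1A in every BxPC-3 library.

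ARNT, the partner subunit, was at 9.35, 3.72 and 5.76 FPKM in induced and 6.21, 4.72 and 4.41 FPKM in control CFPAC-1 libraries. In BxPC-3 it was at 5.17, 2.35 and 2.51 FPKM in induced and 4.54, 2.52 and 2.24 FPKM in control libraries. The ranges overlapped in both lines, and the changes were 0.19 ± 0.33 in CFPAC-1, -0.06 ± 0.48 against control 1 alone and 0.07 ± 0.33 in BxPC-3 (limma adjusted p = 0.717, 0.989 and 1). Library 1 was the highest of its group in all 4 groups.

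VHL was at 7.70, 8.44 and 5.11 FPKM in induced and 5.98, 6.83 and 7.76 FPKM in control CFPAC-1 libraries, and at 9.30, 5.31 and 5.23 FPKM in induced and 7.65, 7.62 and 5.74 FPKM in control BxPC-3 libraries. Induced and control values overlapped in both lines, with changes of 0.02 ± 0.24 in CFPAC-1, 0.19 ± 0.35 against control 1 alone and -0.10 ± 0.24 in BxPC-3 (limma adjusted p = 0.964, 0.856 and 0.979). HIF1AN was at 5.28, 3.28 and 3.54 FPKM in induced and 4.11, 6.89 and 7.03 FPKM in control CFPAC-1 libraries, and at 6.98, 4.33 and 4.58 FPKM in induced and 6.01, 4.21 and 4.37 FPKM in control BxPC-3 libraries. These ranges overlapped too, with changes of -0.47 ± 0.25 in CFPAC-1, -0.04 ± 0.32 against control 1 alone and 0.09 ± 0.25 in BxPC-3 (limma adjusted p = 0.198, 0.988 and 0.988). HIF1AN shares exon bases with NDUFB8 on the other strand, a gene of up to 65.8 FPKM, and whether counting used strand was not given.

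Of the 3 prolyl hydroxylase genes EGLN3 passed, in CFPAC-1, and EGLN1 and EGLN2 did not. EGLN3 (ENSG00000129521, chromosome 14, 33924231 to 34462774) was at 10.5, 7.15 and 7.39 FPKM in induced CFPAC-1 libraries, against 1.18, 0 and 0.0218 FPKM in control libraries, where control 2 is listed at 0. In BxPC-3 it was at 30.7, 5.62 and 5.36 FPKM in induced libraries, against 2.36, 1.67 and 1.68 FPKM in control libraries. Induced libraries were above control libraries in both lines, and induced library 1 of BxPC-3 was the highest of all 12. EGLN3 rose in CFPAC-1 with all libraries (2.82 ± 0.53, limma adjusted p = 0.00823), and its change was 2.09 ± 0.74 against control 1 alone (adjusted p = 0.174). In BxPC-3 the change was 1.93 ± 0.53 and did not pass (adjusted p = 0.273), or 3.24 between the libraries numbered 1 and 1.28 between those numbered 2 and 3.

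EGLN1, the main HIF hydroxylase in most cells, was at 20.7, 11.7 and 12.2 FPKM in induced and 11.7, 5.82 and 5.03 FPKM in control CFPAC-1 libraries. In BxPC-3 it was at 9.02, 4.38 and 4.35 FPKM in induced and 3.56, 3.85 and 4.35 FPKM in control libraries. Induced values lay above control values in both lines by margins that were small: induced 2 of CFPAC-1 nearly met control 1, and induced 3 of BxPC-3 nearly met control 3. The changes were 0.93 ± 0.33 in CFPAC-1, 0.28 ± 0.40 against control 1 alone and 0.43 ± 0.33 in BxPC-3, and none passed (limma adjusted p = 0.0717, 0.795 and 0.812). EGLN2 was at 8.44, 6.75 and 8.98 FPKM in induced and 7.45, 8.14 and 5.11 FPKM in control CFPAC-1 libraries, and at 9.28, 9.66 and 8.49 FPKM in induced and 9.83, 6.38 and 5.64 FPKM in control BxPC-3 libraries. Its ranges overlapped in both lines, with changes of 0.21 ± 0.22 in CFPAC-1, 0.09 ± 0.29 against control 1 alone and 0.32 ± 0.22 in BxPC-3 (limma adjusted p = 0.527, 0.93 and 0.767). Of 18 further HIF regulators that are not members, such as the VHL partners and the CREBBP and EP300 coactivators, 16 were tested and 0 passed in either line by limma, also against control 1 alone. At an unadjusted p under 0.05 there were 5 of 16 in CFPAC-1, 5 against control 1 alone and 1 in BxPC-3, where 36.0%, 18.1% and 8.52% of all genes lay under it.

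**Figure D3:**
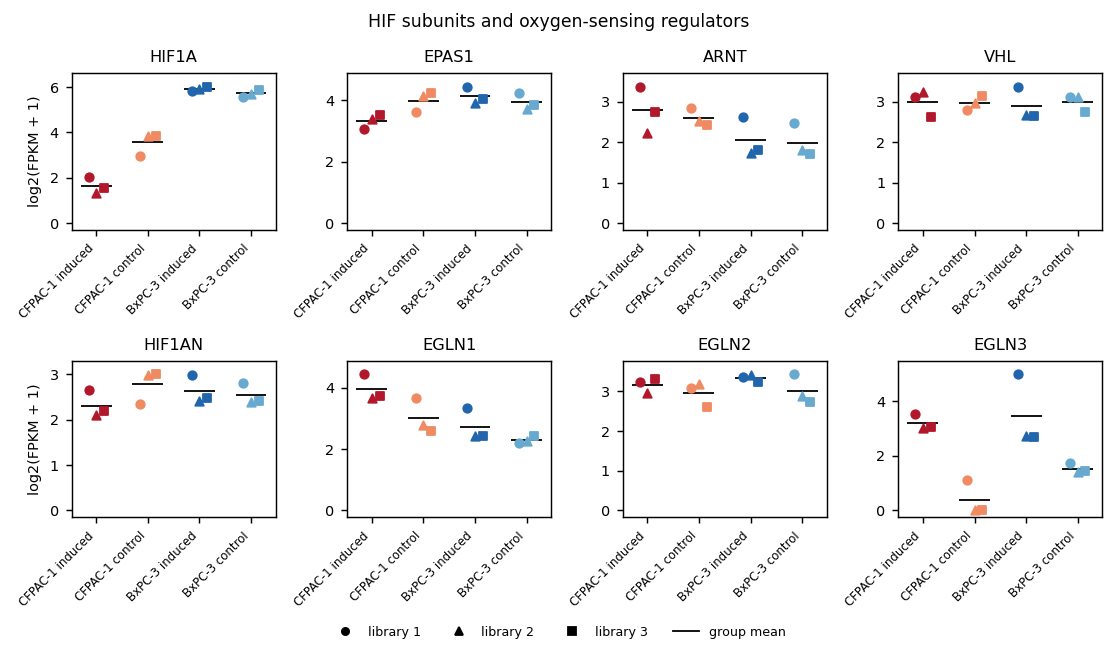
Per-library log2(FPKM + 1) of the 8 regulators by group, induced left of control, with a line at each group mean and a marker shape for each library number. HIF1A separates the lines, and EGLN3 is higher in induced than in control libraries of both lines.

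Of the 5 glycolytic enzymes 3 rose in CFPAC-1 and 1 in BxPC-3, as did 7.85% and 0.295% of all tested genes. PGK1 was the member that passed in both lines. PGK1 (ENSG00000102144, chromosome X, 77910739 to 78129296), the phosphoglycerate kinase whose promoter is printed above, was at 254, 256 and 260.1 FPKM in induced CFPAC-1 libraries, against 122, 97.6 and 99.5 FPKM in control libraries. In BxPC-3 it was at 351, 347 and 357 FPKM in induced libraries, against 196, 152 and 149 FPKM in control libraries. The induced libraries were tight and lay above every control library, and control 1 was the highest control of each line. PGK1 rose by 1.27 ± 0.16 in CFPAC-1 with all libraries and by 1.07 ± 0.21 against control 1 alone (limma adjusted p = 0.00142 and 0.0423). In BxPC-3 it rose by 1.09 ± 0.16 (adjusted p = 0.0171). That BxPC-3 call was lost when any 1 of 4 libraries of the line was left out (induced 2, induced 3, control 2 or control 3), with adjusted p up to 0.143, while the change stayed between 1.02 and 1.22. It was also lost under quantile normalization, when rescaled without mitochondrial genes, with a pseudocount of 0.1 and with BxPC-3 fitted alone. The change of PGK1 did not differ detectably between the lines (difference -0.18 ± 0.23, adjusted p = 0.647).

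GPI, glucose phosphate isomerase, was at 129, 102 and 96.3 FPKM in induced and 53.7, 25.1 and 24.7 FPKM in control CFPAC-1 libraries. In BxPC-3 GPI was at 99.2, 79.4 and 79.6 FPKM in induced and 61.8, 42.9 and 41.4 FPKM in control libraries. Induced libraries lay above control libraries in both lines, and library 1 was the highest of each group. GPI rose in CFPAC-1 (1.72 ± 0.29, limma adjusted p = 0.0051), and had 1.00 against control 1 alone (adjusted p = 0.103) and 0.82 ± 0.29 in BxPC-3 (adjusted p = 0.442). GAPDH, often used as a reference gene, was at 3543, 5062 and 4134 FPKM in induced CFPAC-1 libraries, against 2391, 1502 and 1705 FPKM in control libraries. In BxPC-3 GAPDH was at 3369, 4424 and 4339 FPKM in induced libraries, against 3211, 2550.0 and 2417 FPKM in control libraries. It had the highest level of the 42 members in every library, with induced above control in both lines. GAPDH rose in CFPAC-1 (1.20 ± 0.22, limma adjusted p = 0.00783), with 0.81 against control 1 alone (adjusted p = 0.161) and 0.57 ± 0.22 in BxPC-3 (adjusted p = 0.506). TPI1 and PGAM1, which act before and after PGK1 in the pathway, had changes of 0.14 and -0.16 in CFPAC-1, 0.26 and -0.08 against control 1 alone, and 0.48 and 0.58 in BxPC-3, with 0 passing. In BxPC-3 the induced values of both lay above control, while in CFPAC-1 they overlapped. All 5 glycolytic enzymes had an unadjusted p under 0.05 in BxPC-3, as did 8.52% of all genes. GAPDH, PGK1, TPI1 and PGAM1 have many processed pseudogenes, and how shared reads were split was not given, so their levels are uncertain to that extent.

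Of the 5 members for glucose uptake and its regulation, 4 rose in CFPAC-1, as did 7.85% of all tested genes. In BxPC-3 0 of them passed, also at an unadjusted p under 0.05. SLC2A1, the main glucose transporter of many cancers, was at 204, 182 and 169.8 FPKM in induced CFPAC-1 libraries, against 77.2, 8.24 and 8.50 FPKM in control libraries. In BxPC-3 SLC2A1 was at 141, 85.0 and 86.2 FPKM in induced and 89.0, 81.4 and 73.0 FPKM in control libraries. Control 2 and 3 of CFPAC-1 were far below control 1, and the BxPC-3 ranges overlapped. SLC2A1 rose by 3.29 ± 0.64 in CFPAC-1 with all libraries (limma adjusted p = 0.00903), with 1.25 ± 0.30 against control 1 alone (adjusted p = 0.0702) and 0.32 ± 0.64 in BxPC-3 (adjusted p = 0.968). SLC2A3, a second transporter, was at 6.00, 1.35 and 1.52 FPKM in induced and 0.110, 0.272 and 0.232 FPKM in control CFPAC-1 libraries. It stayed at or under 0.0917 FPKM in all 6 BxPC-3 libraries. SLC2A3 rose in CFPAC-1 (1.52 ± 0.33, limma adjusted p = 0.0144), and had 1.64 against control 1 alone. It entered the test only through the induced CFPAC-1 libraries, the group where it was high. Its call also held without a filter on low values. Its near-identical paralog SLC2A14 may share reads with it.

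PFKFB4, an enzyme that sets the level of an activator of phosphofructokinase, was at 18.0, 6.79 and 7.39 FPKM in induced and 3.13, 1.71 and 1.51 FPKM in control CFPAC-1 libraries. In BxPC-3 PFKFB4 was at 5.89, 1.89 and 1.53 FPKM in induced and 1.09, 1.38 and 1.10 FPKM in control libraries. Induced values were above control values in both lines, and induced library 1 was the highest in each. PFKFB4 rose in CFPAC-1 (1.82 ± 0.41, limma adjusted p = 0.0163), with 1.38 against control 1 alone (adjusted p = 0.251) and 0.76 ± 0.41 in BxPC-3 (adjusted p = 0.666). PDK1, which inhibits pyruvate dehydrogenase, was at 5.89, 3.02 and 3.39 FPKM in induced and 2.64, 0.590 and 0.602 FPKM in control CFPAC-1 libraries. In BxPC-3 PDK1 was at 2.75, 1.71 and 1.69 FPKM in induced and 1.08, 0.809 and 1.06 FPKM in control libraries. Induced lay above control in both lines, by less against CFPAC-1 control 1 than against control 2 and 3. PDK1 rose in CFPAC-1 (1.24 ± 0.32, limma adjusted p = 0.0275), with 0.44 against control 1 alone (adjusted p = 0.527) and 0.61 ± 0.32 in BxPC-3 (adjusted p = 0.66). PFKFB3, a paralog of PFKFB4, had changes of 0.81 in CFPAC-1, 0.06 against control 1 alone and -0.08 in BxPC-3, and none passed. The CFPAC-1 calls of SLC2A3, PFKFB4 and PDK1 were lost without CFPAC-1 control 2 or control 3, and that of PDK1 also without any 1 induced CFPAC-1 library.

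Of the 2 glycogen genes, GBE1, the branching enzyme, was at 23.0, 16.9 and 20.7 FPKM in induced CFPAC-1 libraries, against 8.66, 13.7 and 12.2 FPKM in control libraries. In BxPC-3 GBE1 was at 16.8, 13.3 and 13.9 FPKM in induced libraries, against 6.33, 8.30 and 9.10 FPKM in control libraries. Induced lay above control in both lines, and control 1 was the lowest control in each. GBE1 rose in CFPAC-1 (0.77 ± 0.21, limma adjusted p = 0.0314), with 1.12 ± 0.26 against control 1 alone (adjusted p = 0.0678) and 0.82 ± 0.21 in BxPC-3 (adjusted p = 0.232). That CFPAC-1 call was lost without CFPAC-1 control 2, control 3, any 1 induced CFPAC-1 library, or BxPC-3 control 2. GYS1, a glycogen synthase, had changes of 0.57 in CFPAC-1, -0.30 against control 1 alone and 0.29 in BxPC-3, and none passed.

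Of the 4 secreted factors VEGFA and ADM rose in CFPAC-1, as did 7.85% of all tested genes. In BxPC-3 0 passed, and 3 of the 4 had an unadjusted p under 0.05, as did 8.52% of all genes. VEGFA (ENSG00000112715, chromosome 6, 43770184 to 43786487), the endothelial growth factor, was at 15.6, 8.21 and 8.83 FPKM in induced CFPAC-1 libraries, against 2.94, 2.75 and 3.01 FPKM in control libraries. In BxPC-3 VEGFA was at 10.2, 7.48 and 7.55 FPKM in induced and 6.29, 13.3 and 13.5 FPKM in control libraries. The 3 CFPAC-1 control libraries were close and below all induced libraries. In BxPC-3 induced 1 was above control 1, while induced 2 and 3 were below control 2 and 3. VEGFA rose in CFPAC-1 (1.55 ± 0.29, limma adjusted p = 0.00831), and its change against control 1 alone was 1.54 ± 0.44 (adjusted p = 0.104). In BxPC-3 the change was -0.30 ± 0.29 (adjusted p = 0.876), or 0.62 between the libraries numbered 1 and -0.76 between those numbered 2 and 3.

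ADM, the vasodilator peptide adrenomedullin, was at 54.5, 42.8 and 40.9 FPKM in induced CFPAC-1 libraries, against 21.8, 26.1 and 24.9 FPKM in control libraries. In BxPC-3 ADM was at 25.1, 21.6 and 22.1 FPKM in induced libraries, against 14.8, 12.2 and 11.9 FPKM in control libraries. The ranges were separate in both lines, and the 3 controls of CFPAC-1 were alike. ADM rose in CFPAC-1 (0.89 ± 0.17, limma adjusted p = 0.00847), with 1.04 ± 0.24 against control 1 alone (adjusted p = 0.0636) and 0.78 ± 0.17 in BxPC-3 (adjusted p = 0.131). The call in CFPAC-1 held whichever library was left out.

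ANGPTL4, an inhibitor of lipoprotein lipase, was at 190.0, 114 and 99.7 FPKM in induced CFPAC-1 libraries, against 29.9, 73.3 and 57.9 FPKM in control libraries. In BxPC-3 ANGPTL4 was at 11.2, 23.9 and 22.9 FPKM in induced libraries, against 2.00, 5.29 and 5.16 FPKM in control libraries. Every induced library was above every control library of its line. The changes were 1.35 ± 0.42 in CFPAC-1, 2.08 ± 0.54 against control 1 alone and 1.99 ± 0.42 in BxPC-3, and none passed (limma adjusted p = 0.0506, 0.0824 and 0.117). The BxPC-3 change was 2.03 within library number 1 and 1.97 within numbers 2 and 3. MIF, a cytokine of high level (356 to 761 FPKM over the 12 libraries), had changes of 0.27 in CFPAC-1, 0.32 against control 1 alone and 0.65 in BxPC-3, and none passed. It shares exon bases with its antisense gene MIF-AS1, of up to 13.1 FPKM.

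**Figure D4:**
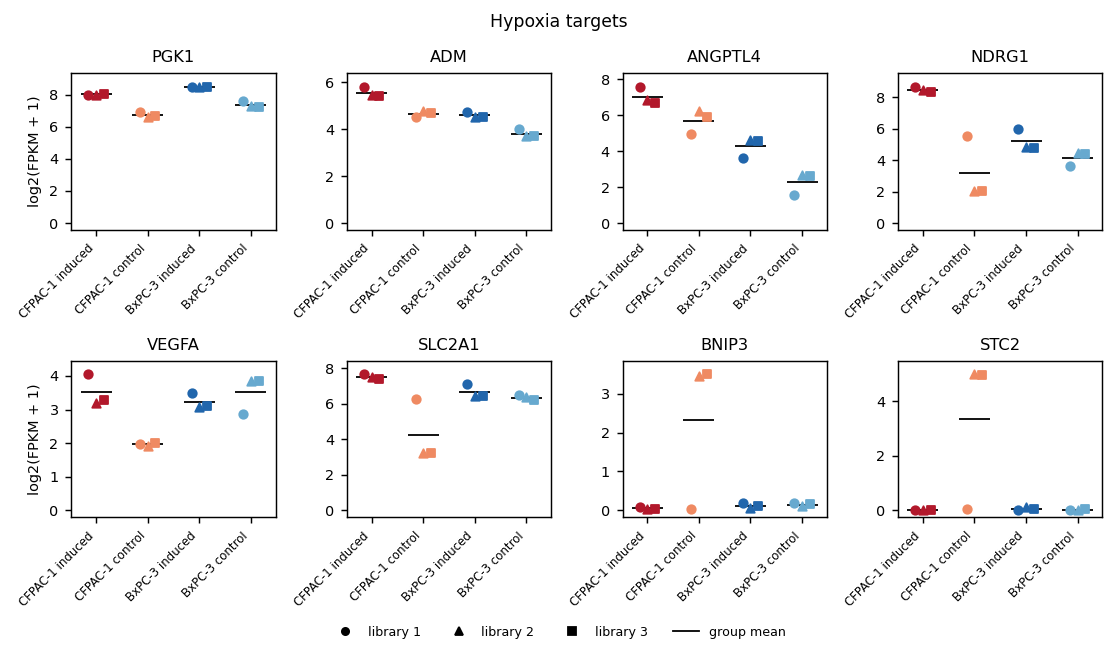
Per-library log2(FPKM + 1) of 8 hypoxia targets by group, induced left of control, with a line at each group mean and a marker shape for each library number. PGK1 and ADM are higher in induced libraries of both lines, VEGFA is higher in induced libraries of CFPAC-1 and overlaps in BxPC-3, and BNIP3 and STC2 are high in CFPAC-1 control 2 and 3.

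The growth, stress and mitophagy targets held the largest change of a member in CFPAC-1, that of NDRG1. Of 11 tested members 5 rose and 0 fell, where 7.85% of all tested genes rose and 8.77% fell. BNIP3 and STC2 of this role were not tested, and both were highest in CFPAC-1 control 2 and 3. NDRG1 (ENSG00000104419, chromosome 8, 133237171 to 133302022), a stress- and differentiation-related gene, was at 401, 350.4 and 321 FPKM in induced CFPAC-1 libraries, against 44.8, 3.14 and 3.10 FPKM in control libraries. In BxPC-3 NDRG1 was at 61.1, 27.2 and 26.5 FPKM in induced libraries, against 11.6, 20.5 and 19.6 FPKM in control libraries. Induced libraries lay above control libraries in both lines, and CFPAC-1 control 1 stood well above control 2 and 3. NDRG1 rose by 5.28 ± 0.76 in CFPAC-1 with all libraries and by 2.96 ± 0.46 against control 1 alone (limma adjusted p = 0.00259 and 0.0173). In BxPC-3 the change was 1.04 ± 0.76 (adjusted p = 0.794), or 2.30 between the libraries numbered 1 and 0.40 between those numbered 2 and 3.

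BNIP3L and BNIP3 encode related mitophagy receptors, and their libraries ranked differently. BNIP3L was at 169.5, 58.2 and 58.5 FPKM in induced CFPAC-1 libraries, against 15.7, 7.67 and 7.06 FPKM in control libraries. In BxPC-3 BNIP3L was at 32.3, 18.8 and 21.5 FPKM in induced libraries, against 9.12, 10.3 and 12.6 FPKM in control libraries. Induced lay above control in both lines. BNIP3L rose in CFPAC-1 (3.00 ± 0.41, limma adjusted p = 0.00216), with 2.34 ± 0.55 against control 1 alone (adjusted p = 0.0678) and 1.08 ± 0.41 in BxPC-3 (adjusted p = 0.492). BNIP3, in contrast, was at 0.0694, 0.0254 and 0.0218 FPKM in induced CFPAC-1 libraries, against 0.0279, 9.90 and 10.3 FPKM in control libraries. It was at 0.143, 0.0429 and 0.0819 FPKM in induced and 0.140, 0.0742 and 0.113 FPKM in control BxPC-3 libraries. STC2, a secreted stanniocalcin, was at 0.00802, 0.00816 and 0.0175 FPKM in induced and 0.0378, 30.9 and 29.9 FPKM in control CFPAC-1 libraries, and at most 0.0877 FPKM in BxPC-3. Both genes were expressed in the libraries labelled CFPAC-1 control 2 and 3 and were near 0 in the other 10. VLDLR, a lipoprotein receptor, reached 1 FPKM in 1 library, BxPC-3 induced 1 (1.39 FPKM).

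DDIT4, an inhibitor of mTORC1 signalling, was at 209.7, 118 and 113 FPKM in induced CFPAC-1 libraries, against 68.9, 14.7 and 14.4 FPKM in control libraries. In BxPC-3 DDIT4 was at 108, 31.6 and 30.2 FPKM in induced and 70.3, 28.6 and 27.5 FPKM in control libraries. Library 1 was the highest of every group, and induced 2 and 3 of BxPC-3 lay just above control 2 and 3. DDIT4 rose in CFPAC-1 (2.47 ± 0.65, limma adjusted p = 0.0287), with 1.02 ± 0.74 against control 1 alone (adjusted p = 0.524) and 0.30 ± 0.65 in BxPC-3 (adjusted p = 0.977). MXI1, which opposes MYC, was at 15.3, 6.00 and 1.86 FPKM in induced and 1.03, 0.349 and 1.28 FPKM in control CFPAC-1 libraries. In BxPC-3 MXI1 was at 3.08, 3.97 and 2.87 FPKM in induced and 1.90, 1.48 and 2.05 FPKM in control libraries. Induced lay above control in both lines, with wide spread among the induced CFPAC-1 libraries. MXI1 rose in CFPAC-1 (1.90 ± 0.48, limma adjusted p = 0.0247), with 1.76 ± 0.69 against control 1 alone (adjusted p = 0.216) and 0.61 ± 0.48 in BxPC-3 (adjusted p = 0.813). INSIG2, which restrains sterol synthesis, was at 13.8, 3.68 and 4.66 FPKM in induced and 2.29, 2.06 and 1.98 FPKM in control CFPAC-1 libraries. In BxPC-3 INSIG2 was at 10.4, 5.60 and 5.99 FPKM in induced and 3.36, 3.83 and 4.93 FPKM in control libraries. The ranges were separate in both lines, and induced 1 was the highest of each. INSIG2 rose in CFPAC-1 (1.24 ± 0.37, limma adjusted p = 0.0449), with 1.15 ± 0.56 against control 1 alone (adjusted p = 0.318) and 0.69 ± 0.37 in BxPC-3 (adjusted p = 0.666). These 3 calls were lost without CFPAC-1 control 2, control 3 or induced 1 for DDIT4 and INSIG2, and without control 2, control 3 or induced 2 for MXI1. The DDIT4 call was also lost without induced 2 or 3, and that of INSIG2 without CFPAC-1 induced 3 or any 1 of 5 BxPC-3 libraries (induced 2, induced 3, or any control).

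FAM162A, a mitochondrial protein gene whose promoter is printed above, was at 12.3, 11.5 and 11.1 FPKM in induced and 7.06, 10.8 and 9.81 FPKM in control CFPAC-1 libraries. In BxPC-3 FAM162A was at 13.2, 19.6 and 19.9 FPKM in induced libraries, against 7.81, 8.76 and 8.64 FPKM in control libraries. Induced lay above control in both lines, by a small margin in CFPAC-1. The changes were 0.32 ± 0.20 in CFPAC-1, 0.65 ± 0.25 against control 1 alone and 0.96 ± 0.20 in BxPC-3 (limma adjusted p = 0.262, 0.21 and 0.101). ZNF395, a zinc finger gene, was at 30.9, 19.4 and 20.9 FPKM in induced and 21.5, 1.06 and 0.291 FPKM in control CFPAC-1 libraries. In BxPC-3 ZNF395 was at 15.3, 5.92 and 6.10 FPKM in induced and 9.48, 4.40 and 4.69 FPKM in control libraries. CFPAC-1 control 1 was within the range of the induced libraries, far above control 2 and 3. ZNF395 shares exon bases with FBXO16, a gene of up to 2.32 FPKM. The changes were 2.63 ± 0.84 in CFPAC-1, 0.11 ± 0.53 against control 1 alone and 0.44 ± 0.84 in BxPC-3 (limma adjusted p = 0.0525, 0.965 and 0.962).

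CITED2, which competes with HIF for its coactivators, was at 18.6, 42.5 and 41.9 FPKM in induced and 14.9, 65.7 and 65.8 FPKM in control CFPAC-1 libraries. In BxPC-3 CITED2 was at 37.6, 19.4 and 17.4 FPKM in induced and 24.3, 9.19 and 9.15 FPKM in control libraries. In BxPC-3 the induced library exceeded the control library within number 1 and within numbers 2 and 3, although the ranges overlapped. The changes were -0.32 ± 0.59 in CFPAC-1, 1.06 ± 0.64 against control 1 alone and 0.82 ± 0.59 in BxPC-3 (limma adjusted p = 0.733, 0.43 and 0.784). ERRFI1, an inhibitor of EGFR signalling, BHLHE40, a transcriptional repressor, and WSB1, part of a ubiquitin ligase, did not pass in either line. Their changes were -1.12, -0.21 and 0.49 in CFPAC-1, 1.20, 0.78 and 0.34 against control 1 alone, and -0.45, -0.23 and -0.38 in BxPC-3. ERRFI1 was at 206 to 207 FPKM in CFPAC-1 control 2 and 3, against 17.5 FPKM in control 1.

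HILPDA, which slows the breakdown of lipid droplets, was at 88.9, 15.2 and 17.0 FPKM in induced CFPAC-1 libraries, against 9.74, 5.39 and 3.83 FPKM in control libraries. In BxPC-3 HILPDA was at 12.5, 7.16 and 7.47 FPKM in induced and 7.52, 2.20 and 2.71 FPKM in control libraries. Induced 1 of CFPAC-1 was far above the rest, and BxPC-3 control 1 met the range of the induced libraries. HILPDA rose in CFPAC-1 (2.10 ± 0.61, limma adjusted p = 0.0395), with 1.47 ± 0.87 against control 1 alone (adjusted p = 0.427) and 1.07 ± 0.61 in BxPC-3 (adjusted p = 0.698). That call was lost without any 1 of 8 libraries, CFPAC-1 control 2, control 3, induced 1 and induced 3 and BxPC-3 control 2, control 3, induced 2 and induced 3.

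Among the chromatin and nuclear targets, ANKRD37 was at 10.6, 3.65 and 3.74 FPKM in induced CFPAC-1 libraries, against 1.49, 0.374 and 0.418 FPKM in control libraries. In BxPC-3 ANKRD37 was at 3.37, 1.24 and 1.39 FPKM in induced and 1.31, 2.97 and 3.35 FPKM in control libraries. In BxPC-3 induced 1 was above control 1, and induced 2 and 3 were below control 2 and 3, the pattern of VEGFA. ANKRD37 rose in CFPAC-1 (1.91 ± 0.42, limma adjusted p = 0.0145), with 1.35 ± 0.58 against control 1 alone (adjusted p = 0.253) and -0.26 ± 0.42 in BxPC-3 (adjusted p = 0.947), and the call was lost without CFPAC-1 control 2 or 3. ANKRD37 shares exon bases with UFSP2 on the other strand, a gene of up to 4.97 FPKM. The histone demethylase genes KDM3A and KDM4B had induced above control values in CFPAC-1 (changes 1.22 ± 0.41 and 0.83 ± 0.29, limma adjusted p = 0.0603 and 0.0633) and changes of 1.13 and 0.81 against control 1 alone and 0.37 and 0.36 in BxPC-3, and none passed.

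Of the 19 members called in CFPAC-1, 10 kept their call whichever library was left out: EGLN3, NDRG1, BNIP3L, ADM, VEGFA, SLC2A1, PGK1, GAPDH, GPI and HIF1A. Leaving out CFPAC-1 control 2 keeps the like control 3, and the reverse, so this cannot show that a call is free of both. The other 9 members lost their call without some library, and all 9 lost it without CFPAC-1 control 2 or 3. Of these, all but SLC2A3 also lost it without a filter on low values, and GBE1, HILPDA and INSIG2 when rescaled without mitochondrial genes. With CFPAC-1 fitted alone all 9 lost their call, and so did NDRG1, ADM, SLC2A1, GAPDH and GPI of the 10. With the 4 libraries numbered 1 left out, an alternative chosen after seeing the data, 31 of 39 members passed in CFPAC-1 (25 up, 6 down) and 23 in BxPC-3 (18 up, 5 down). The same setting for members past the threshold also called 8714 (CFPAC-1) and 5396 (BxPC-3) of all 12860 genes, which is 67.8% and 42% of them.

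Library 1 and libraries 2 and 3 of BxPC-3 were compared within their own number, although the labels do not say that a number marks a shared culture. Of 39 tested members, 30 had a positive change both within number 1 and within numbers 2 and 3, a share of 76.9%, against 31.2% of all tested genes. The members' median was 0.64 within number 1 and 0.34 within numbers 2 and 3, against 0.09 and 0.05 for all genes. Another 8 members were positive within number 1 and negative within numbers 2 and 3: VHL, ERRFI1, BHLHE40, WSB1, VEGFA, ANKRD37, SLC2A3 and PFKFB3. EGLN2 showed the reverse, and 0 were negative in both. SLC2A3 stayed at or under 0.0917 FPKM in BxPC-3, so its signs there say little. In CFPAC-1, 28 of 39 were positive in both (71.8%, against 23.9% of all genes), and HIF1A, EPAS1 and PGAM1 were negative in both. Induced library 1 held the highest of the 3 induced values for 29 of 39 members in each line (74.4%), against 50.7% of all tested genes in CFPAC-1 and 51.8% in BxPC-3.

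**Figure D5:**
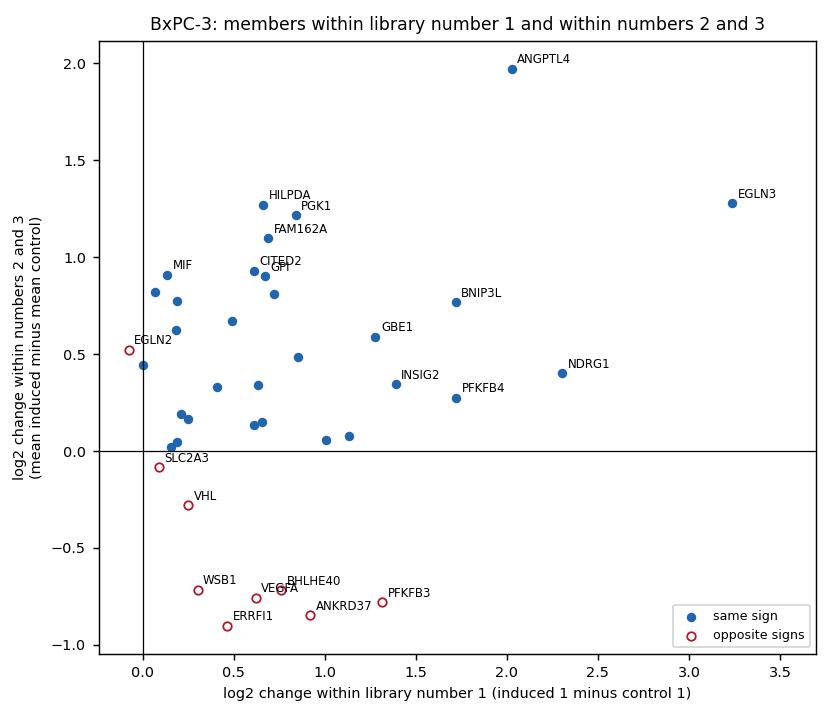
Log2 change in BxPC-3 within library number 1 (horizontal) and within numbers 2 and 3 (vertical) for the 39 tested members, filled where both have the same sign. Of the members 30 lie in the upper right, and VEGFA, ANKRD37 and 6 others have opposite signs to the lower right.

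The changes of 2 members differed between the lines by the test of the difference, BxPC-3 change minus CFPAC-1 change, where 2.45% of all tested genes passed (1.34% up, 1.11% down). The difference was 2.12 ± 0.36 for HIF1A (limma adjusted p = 0.0215) and -1.85 ± 0.42 for VEGFA (adjusted p = 0.0446). Without those CFPAC-1 controls numbered 2 and 3, the differences were 1.53 ± 0.34 and -1.84 ± 0.54 and neither passed (limma adjusted p = 0.0822 and 0.156), where 0.428% of all genes passed (0.179% up, 0.249% down). In that fit 7 of 39 members had an unadjusted p under 0.05, a share near the 16.5% of all genes that did. Either call was also lost when any 1 of the libraries numbered 2 or 3 was left out, in each group of each line, and that of VEGFA also without CFPAC-1 induced 1. The VEGFA call was lost when rescaled without mitochondrial genes, with a pseudocount of 0.1 and without a filter as well. NDRG1 and SLC2A1 had larger differences that did not pass (-4.24 ± 1.07 and -2.97 ± 0.91, limma adjusted p = 0.0603 and 0.0933), and control 2 and 3 were far below control 1 for both.

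Between the induced groups, which hold neither CFPAC-1 control 2 nor control 3, 13 of 39 members passed. Of these, 5 were higher and 8 lower in BxPC-3 than in CFPAC-1. The share of members that passed was near the 36.2% of all genes that did (21.4% higher, 14.8% lower). Higher in induced BxPC-3 cells were HIF1A (4.29), GYS1 (0.92), EPAS1 (0.81), TPI1 (0.78) and PGK1 (0.45), as log2 differences. Lower in induced BxPC-3 cells were NDRG1 (-3.30), ANGPTL4 (-2.75), BNIP3L (-1.78), KDM3A (-1.77), SLC2A3 (-1.74), PFKFB4 (-1.54), EGLN1 (-1.22) and ADM (-0.97). The limma adjusted p ranged from 4.12e-07 for HIF1A to 0.0463 for PGK1. The calls of HIF1A, NDRG1, ANGPTL4, BNIP3L, KDM3A, SLC2A3 and ADM held whichever library was left out. The tested genes were kept the same in these fits. SLC2A3 entered the test only through the 3 induced CFPAC-1 libraries, so its hold is no check of that entry. The other 6 calls were lost without some library. TPI1 was lost without BxPC-3 induced 2, and PFKFB4 without BxPC-3 induced 2 or 3. EPAS1 was lost without induced 1 of either line, and EGLN1 without CFPAC-1 induced 1 or BxPC-3 induced 2 or 3. The call of GYS1 was lost without any 1 induced library or BxPC-3 control 2, and that of PGK1 without any 1 library other than the 2 controls numbered 1. Both were also lost when rescaled without mitochondrial genes and with a pseudocount of 0.1, and GYS1 under quantile normalization and without a filter. With the spread estimated without CFPAC-1 control 2 and 3, 19 of 39 passed, 6 higher and 13 lower, where 44.0% of all genes passed (25.7% higher, 18.3% lower). By range, induced BxPC-3 lay above induced CFPAC-1 for 7 members and below for 15, against 32.1% and 22.4% of all genes.

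Of 38 further HIF targets that are not members, 33 were tested. In CFPAC-1, 9 rose and 1 fell with all libraries, where 7.85% of all tested genes rose and 8.77% fell. In BxPC-3, 2 rose and 0 fell, where 0.295% of all tested genes rose and 0.0389% fell. When CFPAC-1 control 2 and 3 were left out of the fit, 9 rose in BxPC-3, where 0.381% of all tested genes rose. The largest changes among those that passed in CFPAC-1 were CA9 (carbonic anhydrase, 5.80 ± 1.29), NDUFA4L2 (a mitochondrial protein gene, 2.91 ± 0.42), P4HA1 (collagen prolyl hydroxylase, 2.57 ± 0.37) and ENO2 (enolase, 2.52 ± 0.34), with limma adjusted p = 0.0153, 0.00285, 0.0026 and 0.00171. P4HA1 and ENO2 had 1.99 ± 0.49 and 2.09 ± 0.47 against control 1 alone and did not pass there (limma adjusted p = 0.0726 and 0.0599). Those that passed against control 1 alone were HMOX1 (heme oxygenase, 3.12 ± 0.20), NDUFA4L2 (1.61 ± 0.25), CA9 (1.52 ± 0.29) and P4HA2 (1.45 ± 0.21). In BxPC-3 ENO2 (1.91 ± 0.34, limma adjusted p = 0.0417) and P4HA2, a collagen prolyl hydroxylase (1.28 ± 0.15, adjusted p = 0.00801), rose. The median change of the 33 was 0.69 in CFPAC-1, 0.50 against control 1 alone and 0.50 in BxPC-3. For all tested genes these medians were -0.09, -0.05 and 0.06. CA9, named here after its values were seen, was at 57.5, 77.5 and 77.2 FPKM in induced BxPC-3 libraries, against 1.21, 0.783 and 1.11 FPKM in control libraries. All 3 induced libraries were far above all 3 controls. Its BxPC-3 change was 5.13 ± 1.29 with all libraries (limma adjusted p = 0.223). When the CFPAC-1 controls numbered 2 and 3, where CA9 is listed at 0, were left out of the fit, it was 5.13 ± 0.21 (limma adjusted p = 5.33e-06). The 13 mitochondrially encoded mRNAs had negative changes in both lines. With all libraries 2 of them fell in CFPAC-1 (median -0.73), where 8.77% of all tested genes fell. Against control 1 alone their median was -1.46, and that of all tested genes was -0.05.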

How the data were processed

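The authors deposited log2 FPKM values for each gene and library, as the name of their table says; the offset of 1 was inferred from the values (none below 0, silent genes at exactly 0, maximum 13.8). FastQC, StringTie and GRCh38 appear in the submitters' processing notes, while aligner and annotation were not given in the sources used here. Per the labels, total RNA was extracted with TRIzol. The table holds no counts, so depth is unknown and no counting interval is given. FPKM was recovered by undoing the log2. Coordinates are from GENCODE 29 (58457 identifiers matched), promoters from RefSeq.

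The test was limma 3.58.1 (R 4.3.3) on log2(FPKM + 1) with 4 group means over all 12 libraries, two-sided, Benjamini-Hochberg adjusted over 12860 genes. It was run on simulated data for the BxPC-3 comparison alone, with normal noise whose spread left out the CFPAC-1 control libraries. The simulation therefore does not cover the spread that those controls add to the fit. FPKM is relative to each library's total, so abundant transcripts shift the rest. Alternatives covered scaling, pseudocount, filters, variance model, library number and left-out libraries. Rescaling without mitochondrial genes set the sum of all other genes to 1000000 in each library. The FPKM of a library summed to 258299 to 315377 before, so the offset of 1 weighed less after rescaling. An effect of the mitochondrial share and one of the offset cannot be told apart in that setting. The members and lists were chosen with earlier results of these data known. Members named with per-library values are the 8 regulators, those past the threshold in a line and the 10 of largest change in a line; BNIP3 and STC2, which were not tested, were added after their values were seen. The labels do not say that library numbers pair samples. Deviations from the group means, induced against control, had same-number r of -0.080 to -0.020 in CFPAC-1 and 0.054 to 0.151 in BxPC-3. Between different numbers r was -0.060 to 0.074 in CFPAC-1. In BxPC-3 it was -0.165 to -0.077 between number 1 and numbers 2 or 3, and 0.067 and 0.152 between numbers 2 and 3.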

Additional observations from a re-analysis of the deposited data

Results flagged for a closer look

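HIF1A and VEGFA had changes that differed between the lines. The change of HIF1A in BxPC-3 minus that in CFPAC-1 was 2.12 (limma adjusted p = 0.0215): HIF1A averaged 2.17 ± 0.803 FPKM in induced and 11.3 ± 3.83 FPKM in control CFPAC-1 libraries, and 59.8 ± 3.82 FPKM in induced and 52.2 ± 5.77 FPKM in control BxPC-3 libraries (SD, n = 3 each). The difference for VEGFA was -1.85 (limma adjusted p = 0.0446): VEGFA averaged 10.9 ± 4.09 FPKM in induced and 2.90 ± 0.134 FPKM in control CFPAC-1 libraries, and 8.41 ± 1.55 FPKM in induced and 11.0 ± 4.11 FPKM in control BxPC-3 libraries (SD, n = 3 each). Without CFPAC-1 control 2 and 3 the differences were 1.53 and -1.84, and neither passed (limma adjusted p = 0.0822 and 0.156).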

How the results depend on the processing

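The number of members past the threshold was 19 in CFPAC-1, 1 in BxPC-3, 2 for the difference of the changes and 13 between the induced lines, and it moved with several settings. In CFPAC-1 it was 11 without a filter on low values, 3 against control 1 alone, 5 with the line fitted alone and 10 to 26 with 1 library left out. In BxPC-3 it was 0 under quantile normalization, 0 when rescaled without mitochondrial genes, 0 with a pseudocount of 0.1, 0 with the line fitted alone and 0 to 3 with 1 library left out. For the difference it was 1 when rescaled, 1 with that pseudocount, 1 without a filter, 0 without CFPAC-1 control 2 and 3, and 0 to 17 with 1 library left out. Between the induced lines it was 8 to 20 with 1 library left out. Without the 4 libraries numbered 1 the counts were 31, 23, 28 and 30 of 39, where 67.8%, 42%, 62.4% and 67.9% of all genes passed. In the main fit these shares were 16.6%, 0.334%, 2.45% and 36.2%. For the other settings no shares are set beside the counts here. A move of the members and one of all genes cannot be told apart from those counts. The cause of the moves was not tested.

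With the library number as a replicate block the counts were 24 in CFPAC-1 and 1 in BxPC-3. They were 2 for the difference and 19 between the induced lines, and the shares of all genes in that setting are not given here. VEGFA was not called for the difference there, and the labels do not say that the numbers pair the samples. Rescaling without mitochondrial genes moved the median of all genes in CFPAC-1 from -0.09 to -0.23.

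The sign of some changes that did not pass turned. In CFPAC-1, TPI1 had -0.0817 under quantile normalization, and VHL had -0.10 when rescaled and -0.13 without the libraries numbered 1. Against control 1 alone, ARNT had -0.0611, ERRFI1 1.20, BHLHE40 0.78, CITED2 1.06 and GYS1 -0.30. With 1 library left out, changes in CFPAC-1 ran from -0.10 to 0.21 for VHL, -0.70 to 0.0415 for BHLHE40, -1.01 to 0.0614 for CITED2 and -0.10 to 0.46 for ARNT, and in BxPC-3 from -0.22 to 0.30 for ARNT, -0.0903 to 0.23 for HIF1AN, -0.30 to 0.73 for DDIT4, -0.0201 to 0.59 for KDM3A, -0.34 to 0.0206 for VHL, -0.77 to 0.0676 for BHLHE40 and -0.71 to 0.25 for PFKFB3.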
